A study of Homo sapiens with 3 samples.

Results

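The genes described here are the human HOX, SOX and FOX transcription factors that carried at least 1 ribosome peak. They were found by symbol: a name that starts with HOXA, HOXB, HOXC or HOXD, with SOX and a digit, or with FOX, a letter and a number. A peak belonged to the gene of the RefSeq transcript named in its annotation where that transcript could be matched to a gene name, and otherwise to the nearest gene. This gave 36 genes of 3588 in the 3 peak lists, with 452 of 46608 peaks assigned to a gene.

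The study asked how DDX3X, an RNA helicase that acts in translation, and its medulloblastoma-associated mutant G325E change where ribosomes sit on mRNA. HEK293T, a human embryonic kidney line, was transfected for 24 h with empty pCDNA3.1 vector, FLAG-tagged WT DDX3X or FLAG-tagged DDX3X G325E, each beside the DDX3X that the cells make themselves. Per the labels, every group then received harringtonine (2 µg/ml for 90 s), which holds initiating ribosomes, followed by cycloheximide (100 µg/ml), which halts elongating ones; the study's methods name cycloheximide alone. Each construct gave 1 library and 1 list of peaks, so how much any value below varies between cultures is not known.

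HOX, SOX and FOX proteins bind DNA and set cell identity in the embryo. HOX proteins read DNA through a homeodomain, which the second coding exon encodes, and pattern the body axis and the limbs. SOX proteins bend DNA with an HMG box, and FOX proteins bind through a winged-helix forkhead domain; many genes of both families have no intron and a GC-rich coding sequence.

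The lists held 11219 peaks in vector, 19920 in WT and 15680 in G325E, with no height or read count, so the depth behind a peak is unknown. Peak numbers, given in genome order by the authors, ran to 13171 in vector with 14.8% missing, to 23019 in WT with 13.5% missing, and without a gap in G325E; the missing peaks were not analysed here. DDX3X itself had 0 peaks in vector, 32 in WT and 9 in G325E. The labels call the cells neuronal. Of 13 neuronal markers 3 had peaks (NEFL, NEFM and TUBB3), and of 9 embryonic kidney markers 2 had peaks, among them SIX2 in G325E.

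The coding sequence under a few peaks is shown first. The middle 30 nt of each peak are printed 5′ to 3′ on the coding strand (GRCh37), with G and C in capitals. The first pair lies in exon 1 of HOXB9 (chr17:46703317-46703346, minus strand) and HOXC9 (chr12:54394441-54394470, plus strand), at codons 101 and 161, and was under a peak in all 3 lists. G and C made up 26 and 25 of the 30 bases.
HOXB9: CGCaCCtGGCtGGaGCCGGCGCCGCGCGGC
HOXC9: CtGCCCtCGCCCGaGGCGGaCGCGCtCGCC

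The next set lies in the homeodomain, in exon 2 of HOXB8 (chr17:46690738-46690767, minus strand), HOXB7 (chr17:46685414-46685443, minus strand) and HOXA9 (chr7:27203311-27203340, minus strand), and was under a peak in WT alone. G and C made up 18, 21 and 19 of the 30 bases.
HOXB8: atCGaGGtatCGCaCGCCCtGGGaCtGaCa
HOXB7: CGaGGCCGCCaGaCCtaCaCCCGCtaCCaG
HOXA9, exon 2: aCCGCaGGtaCGaGGtGGCtCGaCtGCtCa

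The last set was under a peak in G325E alone. G and C made up between 83.3% and 86.7% of its bases, except in FOXC1, where they made up 19 of 30 as in the WT peak of HOXA9. It comes from exon 1 of HOXA9 (chr7:27204773-27204802, minus strand) and HOXD11 (chr2:176972675-176972704, plus strand) and from the intronless SOX12 (chr20:306589-306618, plus strand) and FOXC1 (chr6:1611338-1611367, plus strand).
HOXA9, exon 1: tGCaCCCCCaGGCGCCCGtGGCGGCGGCGG
HOXD11: CCaCCCGCGCCGCCaCaGCCCGaGGGCGCa
SOX12: GaGGGCCaaGCGGGaCGGCGGGCCGCCGCC
FOXC1: CCCGtGCGCatCCaGGaCatCaaGaCCGaG

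The 36 genes held a larger share of the G325E list than of the others. They had 66 peaks in vector (0.588% of the list, 95% Wilson interval 0.463 to 0.748), 119 in WT (0.597%, 0.499 to 0.714) and 267 in G325E (1.70%, 1.51 to 1.92). These intervals, like all below, cover counting error only, and peaks on 1 gene are not independent of each other. The vector and WT intervals overlapped, and the G325E interval lay above both. By family, the FOX genes had 27, 39 and 160 peaks in vector, WT and G325E, the HOX genes 14, 51 and 71, and the SOX genes 25, 29 and 36. The FOX share was 0.241%, 0.196% and 1.02% of the list in that order, and the HOX share was 0.125%, 0.256% and 0.453%. The SOX shares (0.223%, 0.146% and 0.230%) had overlapping intervals in vector and G325E. For comparison, the zinc finger genes named ZNF, another large family of DNA-binding factors, held 0.633%, 0.899% and 1.10%.

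**Figure D1:**
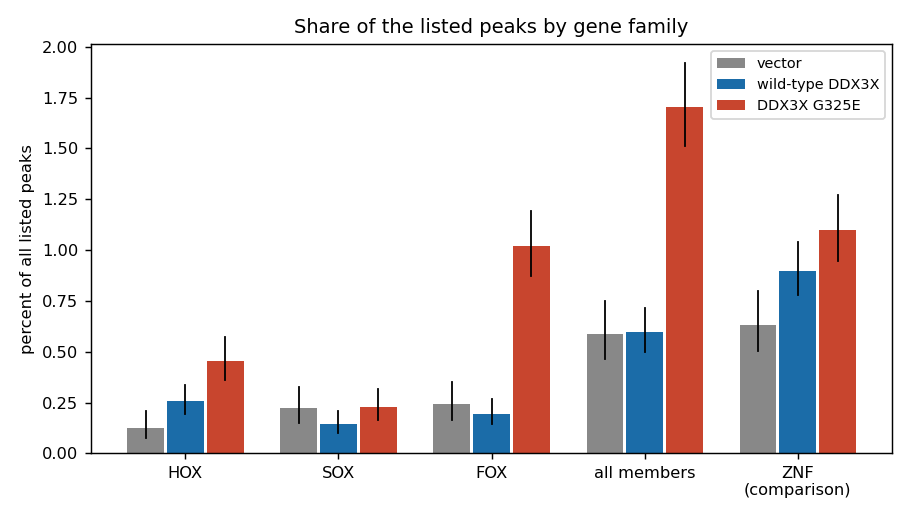
Share of all listed peaks (percent, vertical axis) held by the HOX, SOX and FOX genes, by all 36 members and by ZNF genes, with bars for vector, WT DDX3X and DDX3X G325E and lines for the 95% Wilson interval. The FOX bars stand at 0.241%, 0.196% and 1.02%, and the SOX bars lie within 0.146% to 0.230%.

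What the numbers missing from the other lists could add can be bounded. The listed peaks on either side of the stretch that a gene's peaks span show how many numbers are missing there. At most 72 missing numbers fell at the 36 loci in vector and at most 84 in WT. With every one of them counted as a peak of these genes, the share rose to 1.05% in vector and 0.882% in WT, below the G325E share of 1.70%. GC content also moved with the list: peaks of all other genes averaged 62.7% ± 13.3 (SD) G and C in vector, 62.3% ± 13.5 in WT and 73.1% ± 12.8 in G325E, in the 31 nt around the peak's middle. Among peaks with 60 to 80% G and C the 36 genes held 0.600%, 0.732% and 1.55%.

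More of these genes had peaks in G325E than elsewhere: 13 in vector, 21 in WT and 29 in G325E. Over all 3588 genes, 56.5% had a peak in vector, 83.9% in WT and 64.4% in G325E. Counting only peaks on an exon and the strand of the gene itself, an alternative added after seeing the data, left 9, 15 and 26 of the 36 genes. No peak given to FOXP4, HOXA6, SOX7 or SOX15 met this condition. G325E alone held peaks for 12 of the 36 genes, where 13.2% of all genes had peaks in that list alone. Among these were FOXE1, FOXE3, FOXF1, FOXI3, FOXK2, FOXN3, HOXA2, HOXA5, HOXC13, HOXD11 and SOX17. WT alone held peaks for 4 (FOXP4, HOXB7, HOXB8 and SOX7; 19.1% of all genes), and vector alone for HOXA6 (1.51%). Peaks in all 3 lists were found for 8 (FOXD1, FOXF2, FOXI2, HOXB9, HOXC9, SOX4, SOX12 and SOX15), against 38.6% of all genes. Of the 15 genes without a peak in WT, 12 had no missing number at their locus, FOXK2 and FOXN3 being among the exceptions. In vector this held for 10 of 23.

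Peak numbers were then scaled to 10000 listed peaks and compared gene by gene, for genes with at least 5 peaks in the pair of lists. Against WT, 20 of the 31 genes that could be compared reached 2-fold higher scaled numbers in G325E and 4 reached 2-fold lower ones (FOXP4, HOXB8, SOX7 and SOX11). Over all 2528 genes compared, 26.0% had 2-fold more and 28.6% had 2-fold fewer. The median log2 ratio was 1.57 in the 31 genes and 0.12 over all genes, with a list that had no peak of a gene set at 3 peaks. Against vector, 18 of 27 had 2-fold more in G325E and 2 (SOX11 and SOX15) had fewer, with 34.1% and 22.4% over all genes and median log2 ratios of 0.78 and 0.00. WT against vector gave 8 more and 3 fewer of 18, with 28.0% and 17.3% over all genes and medians of -0.12 and -0.24. Both G325E comparisons use the same G325E list. With missing numbers counted as peaks of the list with fewer, 15 of 31 genes against WT and 16 of 27 against vector still held 2-fold more in G325E. Missing numbers were counted at the loci of these genes alone. No share over all genes at this setting stands beside these counts, and the shares above do not apply to them. The genes that lost the call were FOXD1, FOXF2, FOXI2, FOXO3B and HOXD13 against WT, and FOXB2 and FOXF2 against vector.

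**Figure D2:**
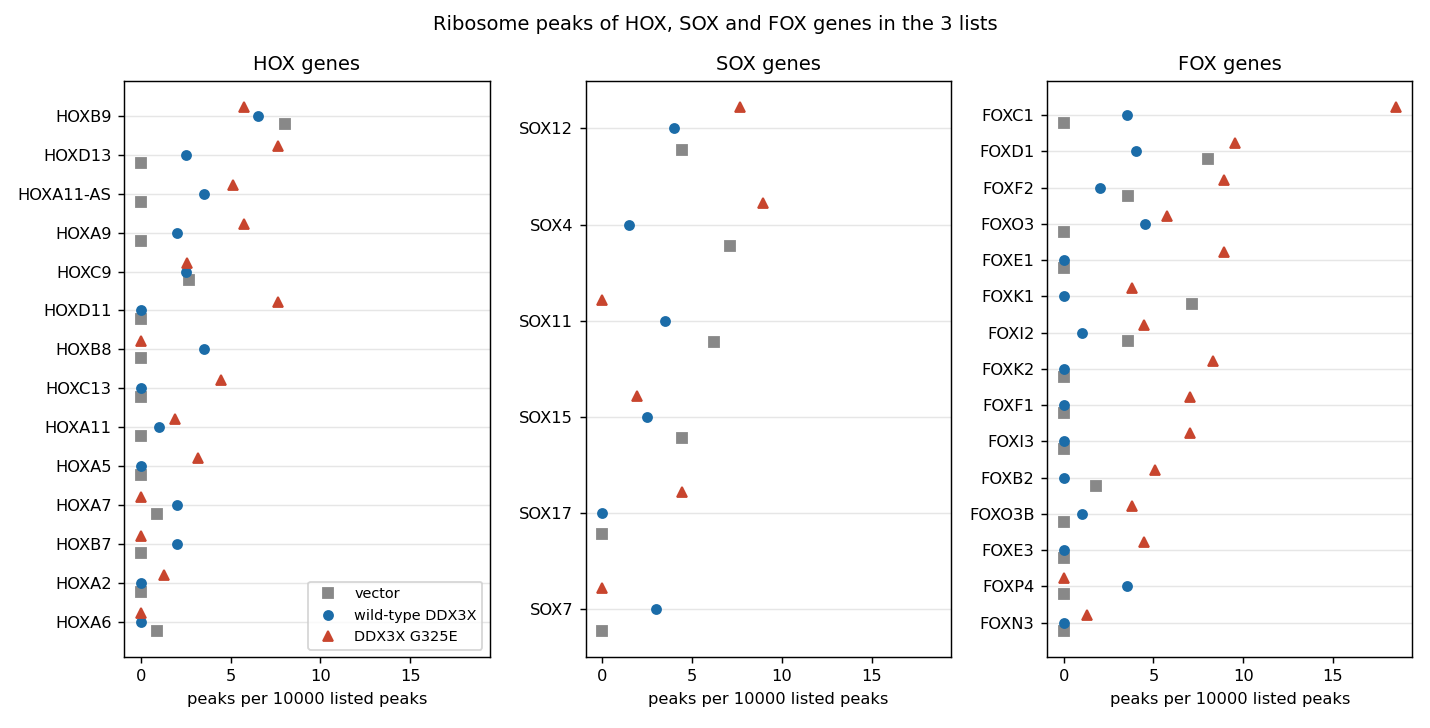
Peaks per 10000 listed peaks (horizontal axis) for 35 of the 36 HOX, SOX and FOX genes, with squares for vector, circles for WT DDX3X and triangles for DDX3X G325E. FOXC1 stands out at 18.5 in G325E, against 3.51 in WT and 0 in vector, whereas the HOXB9 and HOXC9 points lie close together.

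The HOX genes fell into groups with different patterns. HOXB9 and HOXC9, which pattern the trunk, hardly differed between lists. HOXB9 (chr17:46698518-46703720, minus strand) had 9 peaks in vector, 13 in WT and 9 in G325E, and peaks on its own strand covered 45.3%, 50.5% and 44.9% of its coding sequence. HOXC9 (chr12:54393945-54397121, plus strand) had 3, 5 and 4 peaks, covering 28.6%, 29.5% and 31.9%. In both genes all coding peaks lay in exon 1, and a peak at the sequences printed first was present in every list.

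HOXA5, HOXC13 and HOXD11 had peaks in G325E alone; HOXA5 is named here after its values were seen. HOXD11 (chr2:176972008-176974482, plus strand), a limb and kidney patterning gene, had 0, 0 and 12 peaks in vector, WT and G325E. Its coding sequence was covered to 42.7% in G325E. HOXC13 (chr12:54332615-54340328, plus strand), which is needed in hair and nail, had 0, 0 and 7 peaks, and HOXA5 (chr7:27180671-27183300, minus strand), which acts in lung and gut development, had 0, 0 and 5. On an exon and the strand of their own gene lay 7 of the HOXD11 peaks, 4 of the HOXC13 peaks and all 5 of HOXA5. No peak number was missing at HOXD11 or HOXA5 in either of the other lists, and at most 1 was missing at HOXC13 in vector. HOXD13 (chr2:176957449-176960672, plus strand), a digit patterning gene, had 0, 5 and 12 peaks, with at most 5 numbers missing in WT and none in vector. Of the HOXD13 peaks, 3 in WT and 6 in G325E lay on its own exons and strand.

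HOXB8 and HOXB7 showed the opposite. HOXB8 (chr17:46689708-46692654, minus strand), which acts in blood progenitors and the spinal cord, had 0 peaks in vector, 7 in WT and 0 in G325E. HOXB7 (chr17:46684594-46688379, minus strand), named after its values were seen, had 0, 4 and 0. The coding peaks of both lay in exon 2 and covered 34.4% and 19.1% of the coding sequence in WT. In vector at most 2 numbers were missing at each locus, and none in G325E.

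HOXA9 (chr7:27202057-27205156, minus strand), a leukaemia-linked HOX gene, carried both patterns in different exons. It had 0 peaks in vector, 4 in WT and 9 in G325E. All 4 WT peaks lay in exon 2 and 3 of them on the homeodomain, whereas the 6 coding peaks of G325E on the gene's strand all lay in exon 1. The WT peaks carry a non-coding class in the authors' annotation, since a longer transcript through HOXA9 shares that exon, and which transcript the ribosomes were on cannot be told apart.

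By the gene each peak was given to, exon 1 of the HOX genes carried 9 coding peaks in vector (2 genes), 15 in WT (3 genes) and 37 in G325E (8 genes), counted on the gene's strand. Exon 2 carried 11 in WT, from HOXA9, HOXB7 and HOXB8, and 0 in vector and G325E. On the homeodomain, by the peak's middle, lay 9 of 26 coding peaks in WT (34.6%, Wilson 19.4 to 53.8), 0 of 9 in vector and 0 of 37 in G325E. For these shares of 0 the limit given is not a Wilson one but 3 peaks over the number counted. It is 33.3% in vector and 8.11% in G325E. GC content differed along with the exon. The coding part of exon 1 had a median of 66.1% G and C over 13 HOX genes (range 61.2 to 75.7) and that of exon 2 a median of 51.9% (46.6 to 63.4). The exon 1 peaks of G325E averaged 77.5% ± 12.1 (SD) and the exon 2 peaks of WT 59.5% ± 12.2. The part of GC content in this difference was not tested.

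**Figure D3:**
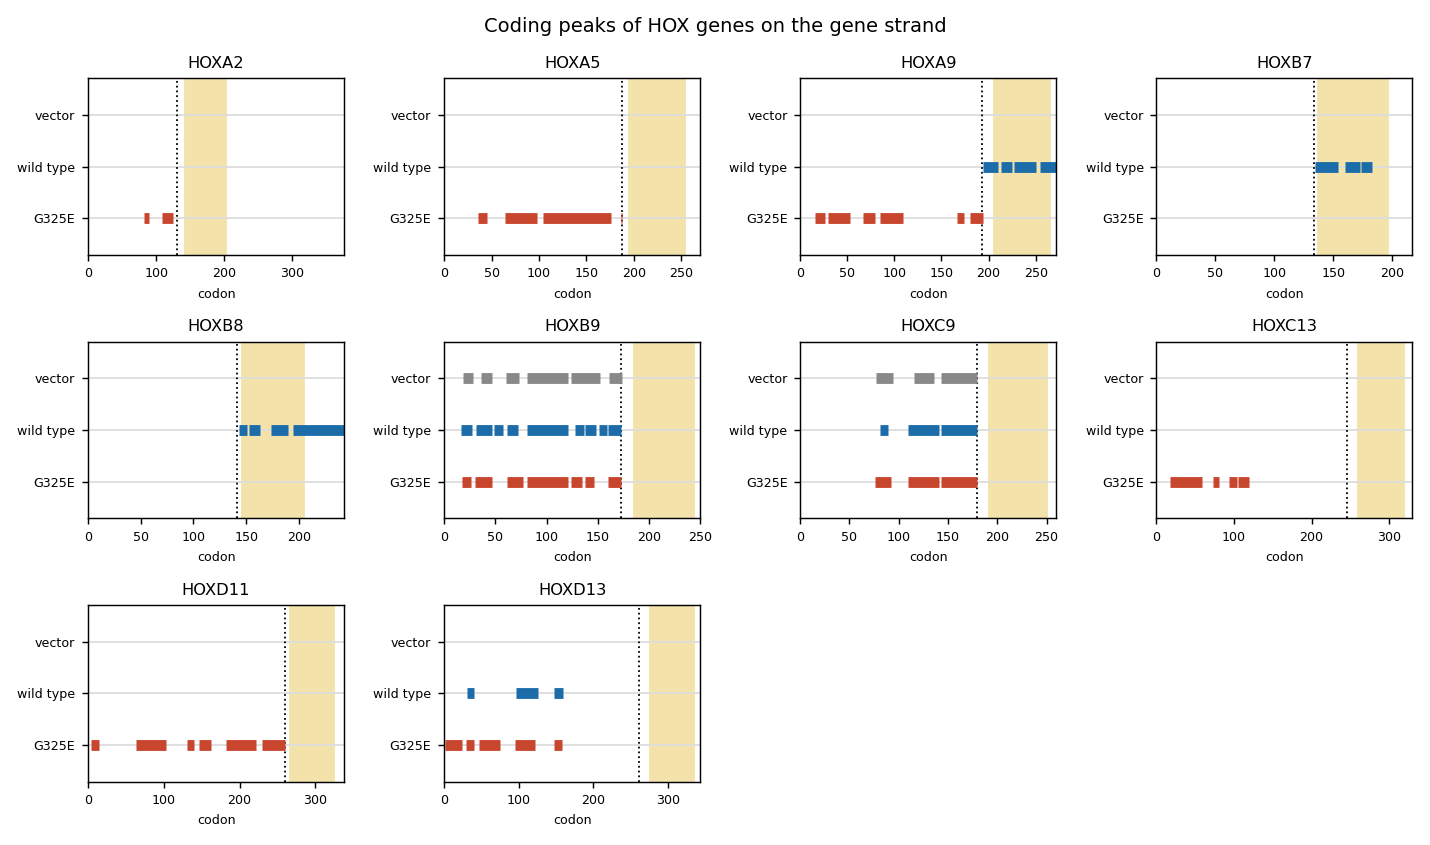
Coding peaks on the gene's strand along 10 HOX coding sequences (horizontal axis, codon), in vector (top), WT DDX3X (middle) and DDX3X G325E (bottom), with the homeodomain shaded and the exon 1 boundary dotted. All 37 peaks of G325E lie left of the boundary, and HOXA9, HOXB7 and HOXB8 carry the 11 WT peaks to its right.

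HOXA11 and its antisense RNA lie on opposite strands of overlapping sequence. HOXA11 had 0, 2 and 3 peaks and HOXA11-AS 0, 7 and 8 in vector, WT and G325E. All 15 peaks given to HOXA11-AS lay on the other strand, on an exon of HOXA11, so by strand they belong to HOXA11, which patterns limb and kidney. All 15 then fall in the coding part of its exon 1. Placed there, an alternative added after seeing the data, they bring the exon 1 count of the HOX genes to 22 in WT (4 genes) and 45 in G325E (9 genes), and the homeodomain share in WT to 9 of 33 (27.3%, Wilson 15.1 to 44.2), with 0 of 45 in G325E. Other HOX peaks were also outside their gene. The 5 peaks given to HOXA7 (1, 4 and 0) lay downstream of it, on HOXA3 and HOXA-AS3 transcripts or between genes, and the only peak given to HOXA6 lay upstream. HOXA2, a hindbrain gene, had 0, 0 and 2.

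The FOX genes held most of the added peaks of G325E. FOXC1 (chr6:1610150-1614132, plus strand), an intronless gene needed for the anterior segment of the eye, had 0 peaks in vector, 7 in WT and 29 in G325E, the highest number of any of the 36 genes. Peaks on its strand covered 0%, 13.9% and 73.2% of the coding sequence, and its longest G325E peak spanned 349 nt. All 7 WT peaks and 20 of the 29 G325E peaks lay on its own exon and strand. At most 9 numbers were missing at FOXC1 in WT and none in vector. Without FOXC1 the share of the 36 genes in G325E was 1.52%.

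Among the FOX genes with peaks in G325E alone, FOXE1, a thyroid factor, had 14 peaks and FOXK2, a regulator of metabolism and autophagy, 13. FOXF1, which acts in lung and gut mesenchyme, and FOXI3, an ectodermal factor, had 11 each. FOXE3, a lens factor, had 7. Not all of these lay on an exon and the strand of their own gene. For FOXE1 8 did, for FOXK2 5, for FOXF1 5, for FOXI3 7 and for FOXE3 5. At FOXE1 6 were on the opposite strand, and at FOXK2 7 lay upstream. In WT the loci of FOXE1, FOXE3, FOXF1 and FOXI3 had no missing number and FOXK2 had at most 7.

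Other FOX genes had peaks in several lists. FOXF2, a relative of FOXF1, had 4, 4 and 14 peaks in vector, WT and G325E, with at most 7 numbers missing in vector and 7 in WT. FOXB2 had 2, 0 and 8, of which 5 in G325E lay on the opposite strand. FOXD1 (chr5:72742093-72744602, minus strand), a marker of kidney stroma, had 9, 8 and 15. Of these, 3 in vector and 4 in WT lay in an intergenic RNA far downstream, which leaves 6, 4 and 15. In G325E 3 of the 15 were on the opposite strand and 1 lay upstream. On its own exons and strand FOXD1 had 6, 4 and 11. FOXK1, the closest relative of FOXK2, had 8 peaks in vector, 0 in WT and 6 in G325E. Of these, 2 in vector and 4 in G325E lay on its own exons and strand, covering 3.09% and 15.2% of the coding sequence. In vector 4 of the 8 lay upstream, and at most 5 numbers were missing at FOXK1. FOXI2 had 4, 2 and 7, but in different places: all peaks of vector and WT lay on the opposite strand of the coding sequence and all 7 of G325E in the 3′-UTR.

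FOXO3, a stress-responsive factor that insulin signalling restrains, did not share the G325E pattern against WT. It had 0 peaks in vector and 9 in both WT and G325E, covering 17.0% and 19.7% of the coding sequence. Its copy FOXO3B had 0, 2 and 6, and since the pair is nearly identical in sequence, the authors' alignment could split reads between them. FOXP4, with 0, 7 and 0 peaks, had none on an exon of its own: all 7 lay upstream or in an intron. FOXN3 had 0, 0 and 2, both upstream.

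Among the SOX genes, SOX4 and SOX12 were covered most fully in G325E and SOX11 not at all. SOX4, SOX11 and SOX12 form the intronless SOXC group, which acts in neural and cardiac progenitors. SOX4 (chr6:21593982-21598850, plus strand) had 8 peaks in vector, 3 in WT and 14 in G325E, covering 23.9%, 18.4% and 64.1% of its coding sequence. SOX12 (chr20:306196-310868, plus strand) had 5, 8 and 12, covering 20.04%, 29.1% and 74.9%. At most 9 numbers were missing at SOX12 in vector and 9 in WT, enough to bring either list above 12 peaks, so the difference in coverage cannot be told apart from the missing numbers. At SOX4 at most 3 were missing in vector and 2 in WT. SOX11 (chr2:5832516-5841517, plus strand) had 7 peaks in vector, 7 in WT and 0 in G325E, all of them coding. Its coding sequence has 68.0% G and C, against 70.5% in SOX4 and 72.9% in SOX12. SOX17, an endoderm factor, had 0, 0 and 7, with 5 of the 7 on its own exons and strand.

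The peaks given to SOX15 and SOX7 lay outside these genes. The 5, 5 and 3 peaks given to SOX15 all lay downstream on the opposite strand, and 12 of the 13 on an exon of MPDU1. The 6 WT peaks given to SOX7 lay upstream of it, and the transcript named in their annotation is one of PINX1 in the RefSeq table.

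**Figure D4:**
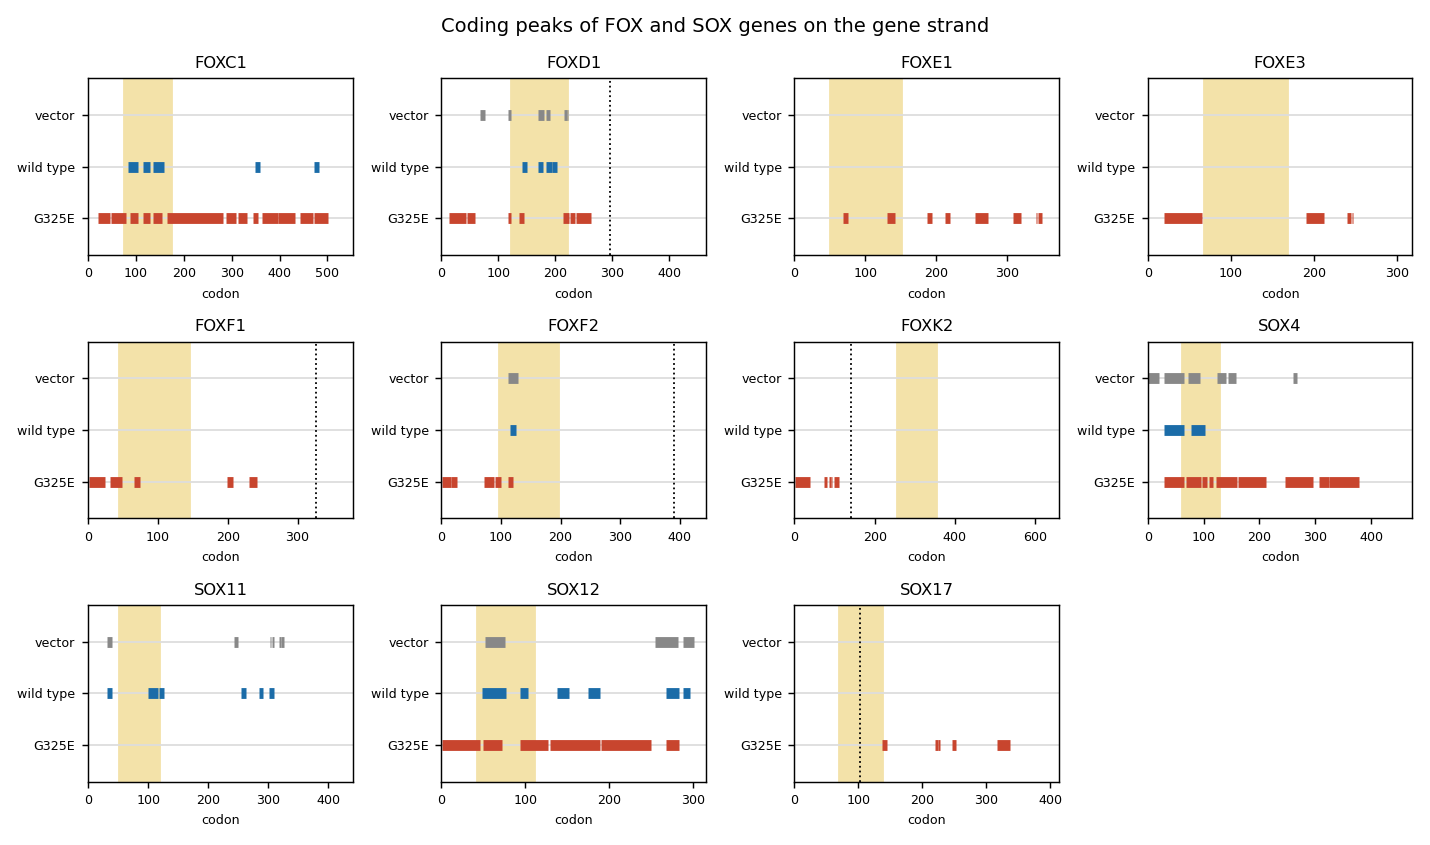
Coding peaks on the gene's strand along 11 FOX and SOX coding sequences (horizontal axis, codon), in vector (top), WT DDX3X (middle) and DDX3X G325E (bottom), with the forkhead domain or HMG box shaded and the exon 1 boundary dotted. FOXC1, SOX4 and SOX12 are covered to 73.2%, 64.1% and 74.9% in G325E, and SOX11 has no G325E peak.

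Placed by the peak's middle, 22.9% of coding peaks lay on the DNA-binding domain in vector (8 of 35, Wilson 12.1 to 39.02), 38.6% in WT (22 of 57, 27.1 to 51.6) and 14.3% in G325E (18 of 126, 9.23 to 21.5). The WT and G325E intervals did not overlap. Within families, forkhead domains held 6 of 10, 9 of 16 and 13 of 69 coding peaks, and HMG boxes 2 of 16, 4 of 15 and 5 of 20. In FOXC1, 3 of 5 coding WT peaks and 3 of 14 coding G325E peaks were on the forkhead domain. The number of peak middles there was the same, and the middles of the other G325E peaks lay outside it. A peak with its middle outside can still reach into the domain. The 349 nt G325E peak of FOXC1, with its middle at codon 224, did so, since the domain ends at codon 176. Overlap of whole peaks with the domain was not counted. With the peaks given to HOXA11-AS placed on HOXA11, the overall shares were 34.4% in WT and 13.4% in G325E.

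Peaks of the 36 genes were rich in G and C in every list. They averaged 72.2% ± 10.5 (SD, 66 peaks) in vector, 68.4% ± 11.6 (119 peaks) in WT and 77.8% ± 11.1 (267 peaks) in G325E, above the values of other genes given earlier. The ZNF genes were close to them, at 69.9% ± 13.5, 67.2% ± 12.2 and 77.1% ± 11.1. The spread of single peaks overlapped between lists. Coding sequences of the 12 genes with peaks in G325E alone had a median of 67.5% G and C (54.8 to 76.8), those of the 7 without a G325E peak 62.2% (60.7 to 68.0), and those of the 16 with peaks in G325E and another list 69.1% (60.9 to 75.1). These ranges overlapped.

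**Figure D5:**
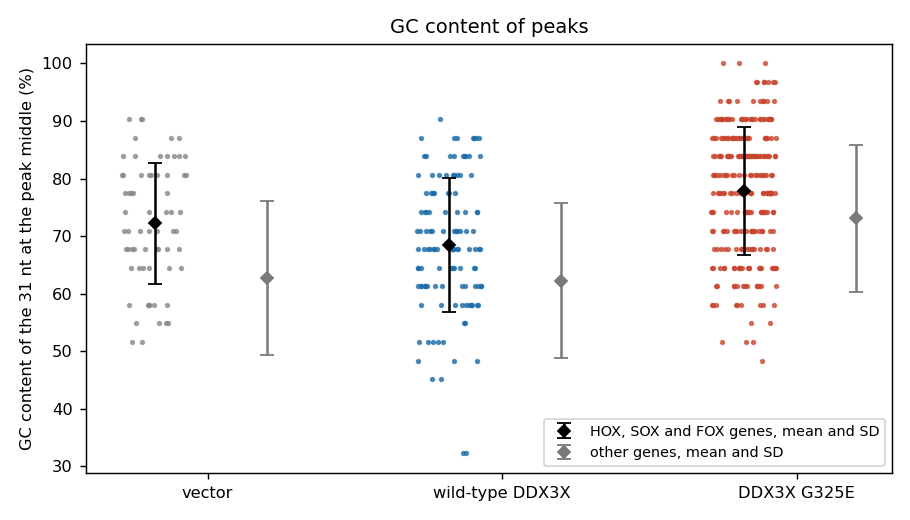
GC content of the 31 nt around each peak's middle (vertical axis, percent) for peaks of the HOX, SOX and FOX genes in vector, WT DDX3X and DDX3X G325E (coloured points, black mean and SD), beside the mean and SD of all other genes (grey). The means are 72.2%, 68.4% and 77.8%, against 62.7%, 62.3% and 73.1%.

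The 5′-UTR held a smaller share of the G325E peaks in these genes than in all other genes; the ZNF genes had a similar share. Of all peaks annotated to a UTR or to coding sequence, 8.51% lay in the 5′-UTR in vector (4 of 47, Wilson 3.36 to 19.9), 7.35% in WT (5 of 68, 3.18 to 16.1) and 5.81% in G325E (10 of 172, 3.19 to 10.4). Other genes had 9.07%, 8.86% and 19.5%. By the canonical transcript, which keeps the bases next to the start site in the 5′-UTR, the 36 genes had 12.5% (5 of 40), 15.7% (11 of 70) and 18.2% (32 of 176, 13.2 to 24.5), and other genes 13.4%, 13.5% and 28.1% (27.1 to 29.2). The G325E intervals of the 36 genes and of all others did not overlap under either definition. In the ZNF genes the G325E share was 3.57% (3 of 84, 1.22 to 9.98) as annotated and 18.4% (14 of 76, 11.3 to 28.6) by canonical transcript, and both intervals overlapped those of the 36 genes. Single-exon transcripts of other genes had 14.2% (11.6 to 17.3) and 11.5% (8.72 to 15.1).

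The start codon was under a peak in more genes in G325E, but the intervals overlapped. The first base of the start codon lay under a peak in 2 of 13 coding genes with peaks in vector (FOXK1 and SOX4; Wilson 4.33 to 42.2%), 2 of 20 in WT (HOXA11 and SOX4; 2.79 to 30.1%) and 11 of 28 in G325E (39.3%, Wilson 23.6 to 57.6). Other genes had 29.5%, 29.3% and 42.4%. Coding peaks were centred at 0.378 ± 0.253 (SD) of the coding sequence in vector, 0.445 ± 0.265 in WT and 0.365 ± 0.243 in G325E, where 0 is the start codon and 1 the stop codon; other genes averaged 0.466, 0.469 and 0.374.

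The G325E peaks of these genes overlapped those of another list less than the peaks of other genes did. Of the 267, 21.3% overlapped a WT peak by at least 1 bp (Wilson 16.9 to 26.7) and 12.0% a vector peak (8.62 to 16.4), where other genes had 47.6% and 35.7%. Of the WT peaks 29.4% overlapped a vector peak (21.97 to 38.1), against 41.5%. A gene without a peak in the other list can hardly overlap one, so the shares were also taken over genes with a peak in both lists, an alternative added after seeing the data. They were then 37.0% in WT (57 of 154, 29.8 to 44.9) and 34.8% in vector (32 of 92, 25.8 to 44.9) for the G325E peaks, against 59.9% and 55.2% in other genes. For the WT peaks in vector the share was 59.3% (35 of 59, 46.6 to 70.9), against 57.5%.

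Many peaks lay on the strand opposite to their gene, as they did over all genes: 28.8% in vector (Wilson 19.3 to 40.6), 23.5% in WT (16.8 to 31.9) and 22.1% in G325E (17.5 to 27.5), against 18.1%, 19.5% and 24.1% of other genes. Counting peaks on an exon and the strand of their own gene alone left 0.357% of the list in vector, 0.351% in WT and 1.12% in G325E. Within a list no peak overlapped a peak of the other strand, so 1 strand was given at each position.

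The cofactors and chromatin regulators of HOX genes were looked at as a list of 29. Of them 4 had peaks in vector, 7 in WT and 5 in G325E, with 17, 35 and 33 peaks. None of the PBX, MEIS or PKNOX partners of HOX proteins had a peak in any list. Against WT, 2 of the 7 that could be compared had 2-fold more in G325E and 3 had fewer. The shares over all 2528 genes compared were 26.0% and 28.6%, and 7 genes are too few to be set apart from them. EZH2, which writes the repressive mark on histone H3, had 5, 5 and 9 peaks, and BMI1, of the other Polycomb complex, 2, 1 and 12. KDM6B, which removes that mark, had 7, 6 and 0, MEN1 had 0, 6 and 5, and CBX8, another Polycomb subunit, 0, 4 and 6.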

How the data were processed

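Ribosome profiling libraries of HEK293T were analysed from the authors' deposited peak lists, 1 per construct, grouped by sample title. As the study and the labels describe it, adapters were cut with cutadapt, reads were aligned with BWA 0.5.5 to hg19 and to transcript sequences, duplicates were removed, peaks were called from base coverage in each sample separately and reviewed by eye, and HOMER annotated them; its version is not given in the sources used here. The deposited values are peak positions and distances to the nearest start site, with no counts or scores. Intervals on shares of peaks are 95% Wilson intervals, and the limit given for a share of 0 is 3 peaks over the number counted. With 1 library per construct no test between constructs was made. Peak middles were placed on GENCODE release 44 canonical transcripts lifted to GRCh37, the build of the lists; 33 of 35 coding members gave a DNA-binding domain, found by a conserved signature with at most 2 mismatches in a window of 60 (homeodomain), 70 (HMG box) or 102 residues (forkhead). The coding sequences of FOXD1 and FOXI3 have a lift gap, and FOXI3 and FOXO3B gave no domain. All 36 members were found in GENCODE. Named genes were those with at least 5 peaks, up to 30 by total; HOXA2, HOXA5, HOXA6, HOXA7, HOXB7 and FOXN3 fall outside this rule and were named after their values were seen, and the values of 1 gene are counted in the totals but not reported here. The members and lists were chosen with earlier results of these data known. The counting was tested on simulated peaks. Software was Python 3.11.15, numpy 2.4.6, pandas 2.3.3, pysam 0.24.0 and matplotlib 3.10.9.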

Additional observations from a re-analysis of the deposited data

Results flagged for a closer look

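Promoter-TSS peaks, a class around the annotated start site that the 5′-UTR comparison leaves out, made up 29.6% of the G325E peaks of the 36 genes (79 of 267, Wilson 24.4 to 35.3), above 12.1% in vector (8 of 66, 6.27 to 22.1). The WT share was 18.5% (22 of 119, 12.5 to 26.4), an interval that overlapped both. By name the G325E peaks came from FOXC1 (14 peaks), FOXK2 (8), HOXA11-AS (8) and FOXI3 (7) among others. In other genes the share was 34.9% in G325E, 23.3% in vector and 21.2% in WT.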

How the results depend on the processing

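No paired analysis was possible because each construct had 1 library. Of 183 values recomputed, 145 stayed within the interval of the reported share or mean or within 1.5 times the reported count; the 38 others follow. On the gene's strand alone the 36 genes held 0.419% of the list in vector, 0.457% in WT and 1.33% in G325E, and the WT promoter-TSS share was 10.99%. On an own exon as well, which was added after seeing the data like the next 3 settings (shares by region within the GC limits excepted), they held 0.357%, 0.351% and 1.12%. With missing peak numbers counted, they held 1.05% in vector and 0.882% in WT. With peaks of 60 to 80% G and C the WT share was 0.732%, 2-fold more peaks were found in 11 of the 16 genes that could still be compared (G325E against WT), 9 of 15 (G325E against vector) and 3 of 9 (WT against vector), fewer in 1 (G325E against WT), the 5′-UTR share in G325E was 1.43% and the promoter-TSS share in vector 3.12%. With peaks within 5 bp merged, 5 genes had fewer in WT than in vector. With at least 10 peaks, genes with more were 11 of 15, 9 of 15 and 0 of 6 and with fewer 0, 0 and 1 in the same order; fewer against vector in G325E was 1 gene on the gene's strand, with peaks of at least 20 bp, or scaled by the median ratio, and more in WT than vector was 4 on the gene's strand. These recomputed counts of genes with 2-fold more or fewer peaks were made for the 36 genes alone. No share over all genes at the same settings stands beside them. The opposite-strand share in G325E was 16.1% with peaks of at least 20 bp. With promoter-TSS and TTS peaks counted in the UTRs, 5′-UTR shares were 20.3%, 27.8% and 35.0%, and by canonical transcript 16.3% in G325E over both strands. In genes with peaks in all 3 lists, promoter-TSS shares were 8.33% in WT and 17.9% in G325E and GC content in G325E 75.2%. Over genes with a peak in both lists, also added after seeing the data, overlap shares were 37.0% (G325E in WT), 34.8% (G325E in vector) and 59.3% (WT in vector). Fewer genes or peaks enter the settings with denominators; other causes were not tested. Without read counts, neither depth nor a peak's strength could be weighed.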
